A study of Mus musculus with 384 samples.

Results

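Cadherins and the regulators of epithelial-mesenchymal transition (EMT) were followed across single formative stem (FS) cells and epiblast-derived stem cells (EpiSCs) of the mouse. The genes were Cdh1, Cdh2 and Cdh3, Epcam, Esrp1, Snai1, Snai2, Zeb1, Zeb2 and Twist1. They were found by gene symbol among the 31617 genes of the table of raw counts, and all 10 had a row. Smart-seq2, which copies full-length mRNA and carries no molecular identifiers, had been applied to cells sorted by flow cytometry with 1 cell in each well. FS cell lines 5ar1 and 5ar2 were grown in AloXR (A3XR in the labels), which holds a low concentration of activin, the tankyrase inhibitor XAV939 and BMS493, an inverse agonist of the retinoic acid receptors. EpiSC line AFX6 was grown in AFX with more activin, Fgf2 and XAV939, and EpiSC line AF32 in AF with activin and Fgf2 but without XAV939. XAV939 was thus shared by both FS cell lines and AFX6, activin by all 4 lines, and N2B27 was the basal medium throughout. The lines are the replicates, 2 of FS cells and 2 of EpiSCs, and since each EpiSC medium was represented by 1 line, medium and line cannot be told apart. The strain of each line was not given in the sources used here.

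Of 384 cells, 96 from each line, 326 with at least 3000000 counts were kept: 90 of 5ar1, 90 of 5ar2, 66 of AFX6 and 80 of AF32. They had 3022666 to 6686007 counts each, with line medians of 4401633 to 5069883. A level is given as CPM, counts scaled to 1000000 per cell or line, either of a single cell or of the summed kept cells of a line. A cell was said to have a gene when it held at least 5 CPM of it, and shares of cells carry exact Clopper-Pearson 95% confidence intervals, which cover counting error only. The pluripotency genes Pou5f1, Utf1, Otx2, Nanog, Fgf5 and Sox2 were above 1 CPM in all 4 lines, with summed levels of 1403 to 1899 CPM for the 6 genes. Summed markers of other cells ranged from 19.5 to 52.9 CPM for 8 fibroblast genes, 5.78 to 12.95 for 8 extraembryonic genes, 8.27 to 62.7 for 7 primitive streak genes and 20.6 to 350 for 6 neural genes. Tubb3, a neuronal tubulin, made up most of the neural sum in the FS cell lines, with 335 CPM in 5ar1 and 130 in 5ar2, and 12.2 in AFX6 and 68.7 in AF32 for EpiSCs, the last 41.9 without its highest cell.

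Classical cadherins are calcium-dependent adhesion receptors that bind the same cadherin on a neighbouring cell and hold the actin cytoskeleton through catenins. Epithelial sheets, the epiblast among them, carry E-cadherin (Cdh1), and cells that leave the epiblast through the primitive streak exchange it for N-cadherin (Cdh2). The zinc finger factors of the Snail and Zeb families and the helix-loop-helix factor Twist1 drive that exchange, and the Snail and Zeb factors repress Cdh1 by binding E-boxes of the form CACCTG. Epcam is a further adhesion molecule of epithelia, and Esrp1 sets epithelial splice forms.

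The sequences before the start sites of Epcam and Snai1 are shown because Epcam was the member whose level went most closely with Cdh1 between cells and Snai1 was the member that was higher in both FS cell lines. They were taken from a set of RefSeq promoters on GRCm38.p6, in which 4 of the 10 members were matched. The other members, Cdh1 among them, were not searched for the motif. The capitals mark CACCTG on either strand, which reads CAGGTG on the reverse one. Each stretch covers the 250 bases before the start site, 5′ to 3′ on the + strand, at chr17:87635729-87635978 for Epcam and chr2:167537945-167538194 for Snai1.
Epcam: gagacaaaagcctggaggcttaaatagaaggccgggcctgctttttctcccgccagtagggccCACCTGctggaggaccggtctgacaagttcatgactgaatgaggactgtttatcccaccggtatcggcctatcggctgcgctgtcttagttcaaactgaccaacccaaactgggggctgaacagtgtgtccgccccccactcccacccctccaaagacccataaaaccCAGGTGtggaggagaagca
Snai1: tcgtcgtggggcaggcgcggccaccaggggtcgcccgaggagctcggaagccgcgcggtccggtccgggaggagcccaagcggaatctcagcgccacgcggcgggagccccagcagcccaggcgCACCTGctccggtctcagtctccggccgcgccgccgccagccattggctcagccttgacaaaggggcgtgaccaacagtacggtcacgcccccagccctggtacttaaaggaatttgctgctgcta
Epcam held the motif 187 and 19 bases before its start site, and Snai1 held it 126 bases before its own. The window searched ran from 250 bases before to 50 after the start. Of 32851 promoters of that length, 20.2% held the motif, so a match is frequent. The windows of Zeb2 and Twist1 held 0 matches. A match shows only that these letters are present.

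Over the 22606 genes tested between FS and EpiSC lines, 0% were called with edgeR's quasi-likelihood test (an adjusted p below 0.05 after Benjamini and Hochberg, with log2 fold changes beyond 1.4 in either direction), and 0 of the 10 members were. At an unadjusted p under 0.05, 16.1% of genes passed, and 2 of the members, Cdh3 and Snai1, did. DESeq2 called 1806 of 30577 genes (5.91%), and 2 of the 10 members, Cdh3 and Snai1. Both FS cell lines lay above both EpiSC lines for 26.8% of the genes tested, and for 1 member, Snai1. Both EpiSC lines lay above both FS cell lines for 21.5% of genes, and for 3 members, Cdh3, Snai2 and Twist1. For Snai2 and Twist1 this rested on 1 cell of AFX6, without which the lines overlapped. The lines overlapped for the other 6 members. The members' counts are given beside those shares as a description. Nothing says that the cells of a line came from more than 1 culture, so p-values measure the spread between lines.

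**Figure D1:**
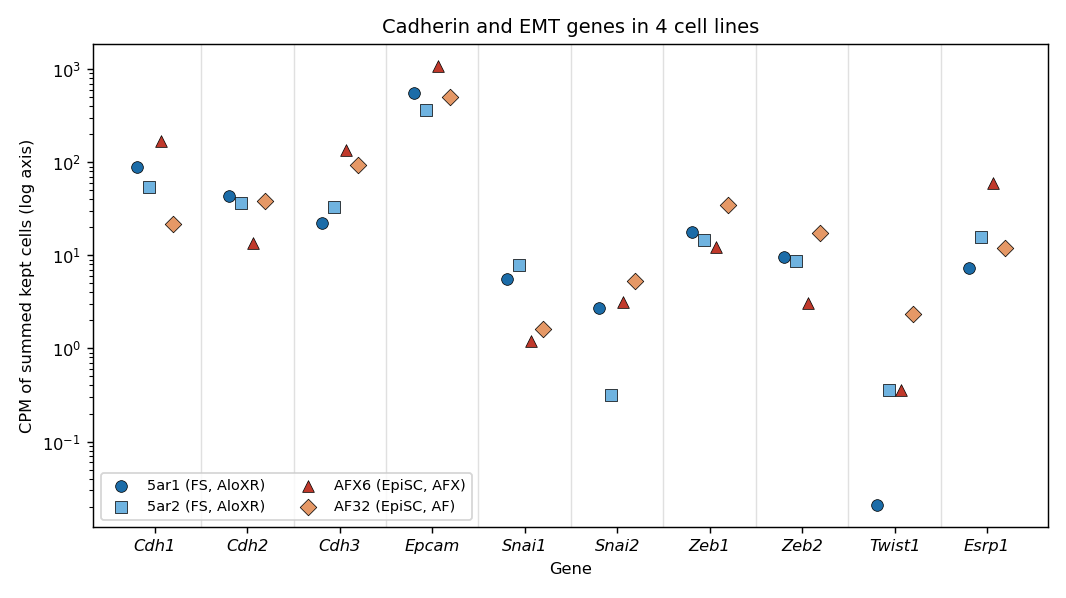
Level of the 10 members in CPM of the summed kept cells (log axis) in the FS cell lines 5ar1 and 5ar2 and the EpiSC lines AFX6 and AF32, with 1 point per line. Cdh3 is higher in both EpiSC lines and Snai1 in both FS cell lines, while for Cdh1 the EpiSC lines mark both ends, at 170.5 and 21.9 CPM.

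Cdh1 (ENSMUSG00000000303, GRCm38 chromosome 8, 106603351–106670246, + strand) encodes E-cadherin. Its summed level was 89.6 CPM in 5ar1 and 54.2 in 5ar2 for the FS cell lines, and 170.5 in AFX6 and 21.9 in AF32 for the EpiSC lines. The EpiSC lines thus lay on either side of the FS cell lines. The mean was 71.9 ± 25.0 CPM (SD, n = 2 lines) in FS cells and 96.2 ± 105.1 (SD, n = 2 lines) in EpiSCs, and the log2 fold change of FS over EpiSC lines was −0.45 (SE 1.00, adjusted p = 0.909 by edgeR). Without AFX6 this value was 1.7 and without AF32 it was −1.28, so its sign rested on which EpiSC line was present. AF32 had 7.79-fold less Cdh1 than AFX6 (exact conditional 95% interval 7.61–7.98), and 12.6% of the 15013 genes compared were at least 2-fold higher in AFX6 than in AF32.

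Between single cells Cdh1 varied widely. In AF32 it was found at 5 CPM or more in 17 of 80 cells (21.25%, 12.9–31.8%), against 58 of 66 in AFX6 (87.9%, 77.5–94.6%), 70 of 90 in 5ar1 (77.8%, 67.8–85.9%) and 64 of 90 in 5ar2 (71.1%, 60.6–80.2%). The median cell of AF32 had 0.422 CPM and the highest cell 523, and 65 of the 80 cells had at least 1 count, while the median of AFX6 was 151.5 CPM. From 1 to below 5 CPM there were 1 cell of 5ar1, 1 of 5ar2, 2 of AFX6 and 2 of AF32, and from 5 to below 20 CPM there were 6, 11, 0 and 2. With the limit at 1 or 20 CPM the share in AF32 was 23.75% or 18.75%, in AFX6 90.9% or 87.9%, in 5ar1 78.9% or 71.1% and in 5ar2 72.2% or 58.9%, the last of which lies outside the interval at 5 CPM. After each cell had been thinned to 1000000 counts it stayed at 21.25%. The tenth of AF32 cells with the most Cdh1, 8 cells, held 86.5% of its counts in that line, against 28.7% for the tenth of AFX6 cells.

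**Figure D2:**
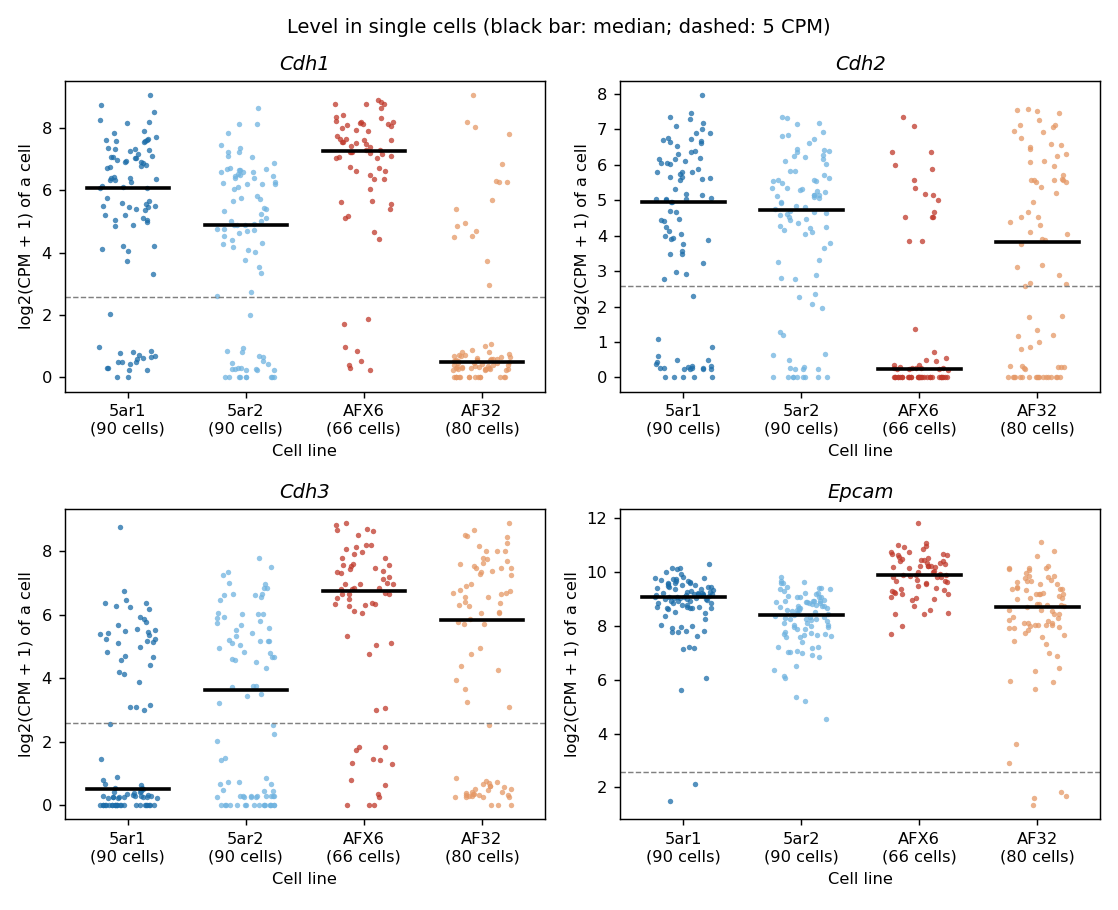
Level of Cdh1, Cdh2, Cdh3 and Epcam in each kept cell as log2(CPM + 1), by line; each point is a cell, the black bar is the median over the cells and the dashed line marks 5 CPM. Cdh1, Cdh2 and Cdh3 spread to both sides of the line, with 17 of 80 AF32 cells above it for Cdh1, whereas Epcam lies above it in nearly every cell.

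Cdh2 (ENSMUSG00000024304, chromosome 18, 16588877–16809246, − strand) encodes N-cadherin. Its summed level was 43.4 CPM in 5ar1 and 36.6 in 5ar2 for the FS cell lines, and 13.5 in AFX6 and 38.4 in AF32 for the EpiSC lines. AFX6 stood below the other 3 lines, which differed little. The log2 fold change of FS over EpiSC lines was 0.63 (SE 0.54, adjusted p = 0.686 by edgeR), and 1.529 without AF32. AF32 had 2.837-fold more Cdh2 than AFX6 (2.743–2.935), and 17.2% of genes were at least 2-fold higher in AF32 than in AFX6. It was found in 66 of 90 cells of 5ar1 (73.3%, 63.0–82.1%) and 67 of 90 of 5ar2 (74.4%, 64.2–83.1%). In EpiSCs it was found in 17 of 66 AFX6 cells (25.8%, 15.8–38.0%) and 46 of 80 AF32 cells (57.5%, 45.9–68.5%). The cells of AFX6 that had it were not low, with a median of 35.1 CPM against 49.1 in 5ar1, 36.7 in 5ar2 and 46.8 in AF32. The lines thus differed more in the share of cells with Cdh2 than in its level in those cells.

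Cdh3 (ENSMUSG00000061048, chromosome 8, 106510891–106557297, + strand) encodes P-cadherin and lies beside Cdh1 on the same strand. Its summed level was 22.1 CPM in 5ar1 and 33.4 in 5ar2 for the FS cell lines, and 134.5 in AFX6 and 93.7 in AF32 for the EpiSC lines. Both EpiSC lines were above both FS cell lines, with means of 114 ± 28.85 CPM (SD, n = 2 lines) and 27.7 ± 7.97 (SD, n = 2 lines). The log2 fold change was −2.05 (SE 0.345) with an unadjusted p of 0.00333 and an adjusted p of 0.190 by edgeR, and an adjusted p of 6.42e-06 by DESeq2. Leaving out each line in turn gave log2 fold changes of −2.39 to −1.74, with adjusted p of 0.178 to 0.751 by edgeR. It was found in 41.1% of 5ar1 cells (30.8–52.0%), 53.3% of 5ar2 cells (42.5–63.9%), 78.8% of AFX6 cells (67.0–87.9%) and 63.75% of AF32 cells (52.2–74.2%). Cells that had it also held more in EpiSCs, with medians of 126 CPM in AFX6 and 108 in AF32 against 40.5 in 5ar1 and 46.3 in 5ar2. Per kilobase of exons the levels in AF32 were 21.4 CPM per kilobase for Cdh3, 4.78 for Cdh1 and 4.76 for Cdh2, and in AFX6 they were 30.7, 37.3 and 1.678. In 5ar1 they were 5.04, 19.6 and 5.38, and in 5ar2 7.61, 11.9 and 4.53, so that per length Cdh1 led in 3 lines and Cdh3 in AF32.

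Epcam (ENSMUSG00000045394, chromosome 17, 87635979–87651129, + strand) was the most abundant member in every line. Its summed level was 553 CPM in 5ar1 and 362 in 5ar2 for the FS cell lines, and 1083 in AFX6 and 500.2 in AF32 for the EpiSC lines. AF32 lay between the FS cell lines, and AFX6 was 2.164-fold above AF32 (2.152–2.177). The log2 fold change of FS over EpiSC lines was −0.81 (SE 0.469, adjusted p = 0.516 by edgeR). It was found in 88 of 90 cells of 5ar1, 90 of 90 of 5ar2, then in 66 of 66 cells of AFX6 and 76 of 80 of AF32 (95%, 87.7–98.6%). Most AF32 cells without Cdh1 had Epcam: of the 63 AF32 cells below 5 CPM of Cdh1, 59 had Epcam, with a median of 315 CPM over the 63 cells against 796 in the 17 cells with Cdh1.

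Esrp1 (ENSMUSG00000040728, chromosome 4, 11331933–11386783, − strand) encodes an epithelial splicing regulator. Its summed level was 7.32 CPM in 5ar1 and 15.9 in 5ar2 for the FS cell lines, and 59.4 in AFX6 and 11.9 in AF32 for the EpiSC lines. Like Cdh1 it was high in AFX6, and AF32 held 5.00-fold less (4.83–5.17). Its log2 fold change of FS over EpiSC lines was −1.64 (SE 0.916, adjusted p = 0.498 by edgeR). It was found in 49 of 66 AFX6 cells (74.2%, 62.0–84.2%), 33 of 90 of 5ar2 (36.7%, 26.7–47.5%), 23 of 90 of 5ar1 (25.6%, 16.9–35.8%) and 13 of 80 of AF32 (16.25%, 8.95–26.2%). In AF32 the share with Esrp1 was 8 of 17 among cells with Cdh1 (47.1%, 23.0–72.2%) and 5 of 63 among the others (7.94%, 2.627–17.6%). In 5ar1 it was 22 of 70 with Cdh1 (31.4%, 20.9–43.6%) and 1 of 20 without (5%, 0.127–24.9%), in 5ar2 27 of 64 (42.2%) and 6 of 26 (23.1%), and in AFX6 44 of 58 (75.9%) and 5 of 8 (62.5%). The reads that overlap an opposite-strand gene, Gm26663, could touch 2.01% of the exon bases of Esrp1.

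Snai1 (ENSMUSG00000042821, chromosome 2, 167538195–167542814, + strand), a zinc finger repressor, was the only member above both EpiSC lines in both FS cell lines. Its summed level was 5.56 CPM in 5ar1 and 7.78 in 5ar2 for the FS cell lines, and 1.2 in AFX6 and 1.613 in AF32 for the EpiSC lines. The means were 6.673 ± 1.572 CPM (SD, n = 2 lines) in FS cells and 1.406 ± 0.2925 (SD, n = 2 lines) in EpiSCs. The log2 fold change was 2.244 (SE 0.526) with an unadjusted p of 0.0114 and an adjusted p of 0.190 by edgeR, and an adjusted p of 5.91e-05 by DESeq2. Leaving out each line in turn gave log2 fold changes of 1.97 to 2.446, with adjusted p of 0.183 to 0.751 by edgeR. It was found in 24 of 90 cells of 5ar1 (26.7%, 17.9–37.0%) and 26 of 90 of 5ar2 (28.9%, 19.8–39.4%), against 2 of 66 of AFX6 (3.03%, 0.369–10.5%) and 3 of 80 of AF32 (3.75%, 0.780–10.6%). Snai1 was found in FS cells with and without Cdh1: 20 of 70 cells of 5ar1 with Cdh1 had Snai1 (28.6%, 18.4–40.6%) against 4 of 20 without (20%, 5.73–43.7%). In 5ar2 these were 17 of 64 (26.6%, 16.3–39.1%) and 9 of 26 (34.6%, 17.2–55.7%). The intervals overlap in both lines. The EpiSC levels rested on few cells, and without the cell with the most Snai1 they were 0.296 CPM in AFX6 and 0.781 in AF32. Of 6 primitive streak genes tested, 2 were higher in both FS cell lines, 3 in both EpiSC lines and 1 overlapped. Over all genes the first 2 shares were 26.8% and 21.5%. Without its highest cell AFX6 had 0.0703 CPM of T and 0.0488 of Mixl1, below 5ar2 with 0.179 and 0.2185. Of the Sox17 counts, 1 cell held 99.6% in 5ar1 and 1 cell held 99.4% in 5ar2. Eomes had 61.3 and 48.2 CPM in 5ar1 and 5ar2 and 6.623 and 5.84 in AFX6 and AF32, and T had 0.144 and 0.179 and then 0.382 and 39.1. Their part in the level of Snai1 was not tested.

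Zeb1 (ENSMUSG00000024238, chromosome 18, 5591860–5775467, + strand) and Zeb2 (ENSMUSG00000026872, chromosome 2, 44983632–45117395, − strand) had their highest summed levels in AF32. The summed level of Zeb1 was 18.0 CPM in 5ar1 and 14.7 in 5ar2 for the FS cell lines, and 12.2 in AFX6 and 34.9 in AF32 for the EpiSC lines. That of Zeb2 was 9.50 CPM in 5ar1 and 8.75 in 5ar2 for the FS cell lines, and 3.08 in AFX6 and 17.5 in AF32 for the EpiSC lines. Without its highest cell AFX6 had 7.61 CPM of Zeb1. AF32 had 2.857-fold more Zeb1 (2.757–2.961) and 5.68-fold more Zeb2 (5.32–6.07) than AFX6. Zeb1 was found in 60% of AF32 cells (48.4–70.8%), against 19.7% in AFX6 (10.9–31.3%), with 44.4% of 5ar1 and 50% of 5ar2 cells between them. Zeb2 was found in 30% of AF32 cells (20.3–41.3%), against 9.09% in AFX6 (3.41–18.7%), and in 37 of 90 cells of 5ar1 and 29 of 90 of 5ar2. The log2 fold change of FS over EpiSC lines was −0.52 for Zeb1 (SE 0.558, adjusted p = 0.762 by edgeR). It was −0.16 for Zeb2 (SE 0.863, adjusted p = 0.965 by edgeR), and both turned positive without AF32. In AF32, 40 of the 63 cells without Cdh1 had Zeb1 (63.5%, 50.4–75.3%), and 8 of the 17 cells with Cdh1 had it too (47.1%, 23.0–72.2%). Genes on the opposite strand overlap 1.9% of the exon bases of Zeb1 (Gm10125), and other genes overlap 3.3% of those of Zeb2 (Zeb2os, Gm27761 and Mir5129).

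Snai2 (ENSMUSG00000022676, chromosome 16, 14705852–14709385, + strand) and Twist1 (ENSMUSG00000035799, chromosome 12, 33957671–33959829, + strand) were rare. Snai2 had 2.699 CPM in 5ar1 and 0.313 in 5ar2 for the FS cell lines, and 3.175 in AFX6 and 5.32 in AF32 for the EpiSC lines, and was found in 11 of 90, 2 of 90, 5 of 66 and 10 of 80 cells. The FS cell lines differed 8.63-fold in it (7.22–10.4). Of the 14694 genes that reached 1 CPM in 5ar1 or 5ar2, 7.4% were at least 2-fold higher in 5ar1 and 5.94% in 5ar2. Snai2 reached 1 CPM in 5ar1 alone, so it could only lie higher there. Esrp1 was the other member past 2-fold among those compared, 2.173-fold higher in 5ar2 (2.08–2.267), where without its highest cell the level was 10.6 CPM. Twist1 had 0.0209 CPM in 5ar1 and 0.354 in 5ar2 for the FS cell lines, and 0.355 in AFX6 and 2.347 in AF32 for the EpiSC lines, and was found in 0 of 90, 2 of 90, 2 of 66 and 10 of 80 cells. The 0 of 90 cells in 5ar1 allow a share of up to 4.02%. Twist1 had 9 counts in all cells of 5ar1, and the fold of 5ar2 over 5ar1, 16.95, had an interval of 8.70–37.8. Without its highest cell AFX6 had 2.032 CPM of Snai2, below 5ar1, and 0.156 of Twist1, below 5ar2. Likewise 5ar2 had 0.139 CPM of Snai2 and 0.216 of Twist1, and 5ar1 had 0.00938 of Twist1. The log2 fold changes of FS over EpiSC lines were −1.50 for Snai2 (SE 1.2, adjusted p = 0.642) and −2.83 for Twist1 (SE 1.8, adjusted p = 0.558), both by edgeR.

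Between AF32 and AFX6 the members fell on 2 sides. Cdh1, Esrp1 and Epcam were at least 2-fold higher in AFX6, and Cdh2, Zeb1, Zeb2 and Twist1 at least 2-fold higher in AF32. Over the 15013 genes compared these shares were 12.6% and 17.2%. Twist1 had 118 counts in AFX6, 56.8% of them in 1 cell. It reached 1 CPM in AF32 alone, so it could only lie higher there. Cdh3, Snai1 and Snai2 lay within 2-fold. Folds between single lines have no replicate check, and their intervals cover counting error only. Chromosome 8, which carries Cdh1 and Cdh3, was expressed more than 1.2-fold above the median of the other autosomes, relative to all kept cells, in 42 of 80 AF32 cells and in 0 cells of the other lines. Between AF32 cells Spearman's rho of that ratio was −0.078 with Cdh1 and 0.012 with Cdh3. Chromosome 2, with Snai1 and Zeb2, was above 1.2 in 29 of 80 AF32 cells, where the ratio had a rho of 0.340 with Zeb2 and −0.115 with Snai1. Its part in the level of Zeb2 was not tested. Chromosome 16, with Snai2, was above 1.2 in 32 of 90 cells of 5ar2, the line with the least Snai2. Primitive streak genes were also unequal between the EpiSC lines, with T at 39.1 CPM in AF32, of which 1 cell held 99.1%, against 0.382 in AFX6, and Foxa2 at 7.92 CPM in AF32, from 13 of 80 cells. Their part in the difference in Cdh1 was not tested.

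Since cells that hold Cdh1 can also hold Cdh2, both genes were read in the same cells. In 5ar1, 49 of 90 cells had both (54.4%, 43.6–65.0%), 21 had Cdh1 without Cdh2, 17 had Cdh2 without Cdh1 and 3 had neither. In 5ar2 the numbers were 45 of 90 with both (50%, 39.3–60.7%), 19, 22 and 4. The shares with both lay near 50% in each FS cell line. They depend on the limit, since at 20 CPM the share of cells with Cdh2 was 56.7% in 5ar1 and 58.9% in 5ar2. In AFX6, 16 of 66 cells had both (24.2%, 14.5–36.4%), 42 had Cdh1 without Cdh2, 1 had Cdh2 without Cdh1 and 7 had neither. In AF32, 11 of 80 cells had both (13.75%, 7.07–23.3%), 6 had Cdh1 without Cdh2, 35 had Cdh2 without Cdh1 and 28 had neither (35%, 24.7–46.5%). With Cdh3 counted too, 11 of 80 AF32 cells (13.75%, 7.07–23.3%) had none of the 3 cadherins at 5 CPM, against 0 of 90 in 5ar1, 2 of 90 in 5ar2 and 2 of 66 in AFX6. All 3 were found together in 18 of 90 cells of 5ar1, 25 of 90 of 5ar2, then in 15 of 66 cells of AFX6 and 9 of 80 of AF32.

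**Figure D3:**
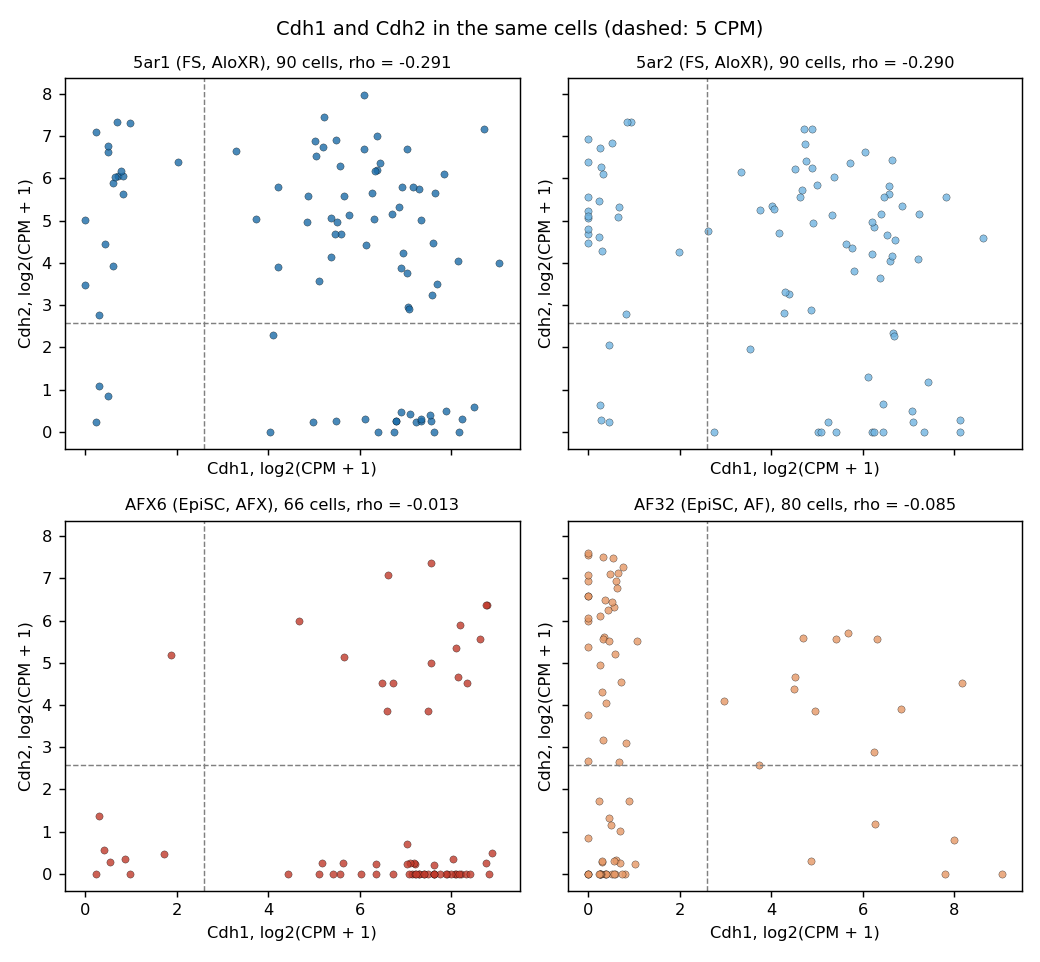
Cdh1 (x axis) and Cdh2 (y axis) as log2(CPM + 1) in each kept cell, 1 panel per line, with dashed lines at 5 CPM and Spearman's rho in the title. FS cells fill 3 quadrants with 3 and 4 cells in the lower left, AFX6 lies along the lower right, and AF32 splits mainly between the upper left with 35 cells and the lower left with 28.

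The levels of Cdh1 and Cdh2 ran against each other between FS cells, and their rho was nearer 0 between EpiSCs. Spearman's rho was −0.291 over the 90 cells of 5ar1 and −0.290 over the 90 cells of 5ar2. It was −0.0125 over the 66 cells of AFX6 and −0.0852 over the 80 cells of AF32. In each EpiSC line 1 of the genes was near the floor in most cells. Cdh2 had a median of 0.171 CPM in AFX6, where 32 of 66 cells had no count. Cdh1 had a median of 0.422 CPM and an upper quartile of 0.785 in AF32. Ranks there rest largely on ties and few counts. The part of this in the rho of the EpiSC lines was not tested. Cells of a line share their culture medium and are not independent replicates. No p is therefore given, and the difference between FS cells and EpiSCs was not tested. In 5ar1 and 5ar2 rho with depth was −0.059 and 0.076 for Cdh1 and −0.173 and −0.0081 for Cdh2. There, rho with the number of detected genes was 0.136 and 0.035 for Cdh1 and 0.047 and −0.0075 for Cdh2, and the partial rho given that number was −0.301 in 5ar1 and −0.290 in 5ar2. The median Cdh2 level of 5ar1 was 22.8 CPM in the 70 cells with Cdh1 and 61.4 CPM in the 20 cells without, and in 5ar2 22.7 CPM in 64 cells and 33.3 CPM in 26 cells. For scale, 7038 genes averaging 20 CPM or more were ranked in the same way. In 5ar1, 24 of them had a lower rho with Cdh1 than Cdh2 had, and in 5ar2 it was 35, against 2516 in AFX6 and 1170 in AF32.

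Epcam ran with Cdh1 and against Cdh2. Its rho with Cdh1 was 0.461 in 5ar1 and 0.335 in 5ar2 for the FS cell lines, and 0.056 in AFX6 and 0.198 in AF32 for the EpiSC lines. With Cdh2 it was −0.396, −0.372, 0.076 and −0.236 in the same order. Esrp1 belonged to the same side, with a rho of 0.296, 0.205, 0.060 and 0.240 with Cdh1 and of 0.314, 0.403, −0.026 and 0.312 with Epcam. AFX6, where Epcam was highest and Cdh1 and Esrp1 were found in most cells, showed none of these relations above 0.1. Cdh3 showed little relation with Cdh1, its neighbour, with a rho of −0.032, 0.097, −0.070 and 0.086.

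Among the transcription factors the relations varied between lines. Zeb1 had a rho with Cdh1 of −0.198 in 5ar1 and 0.017 in 5ar2 for FS cells, and −0.118 in AFX6 and −0.257 for AF32. Zeb2 had one of −0.323 with Epcam in 5ar2 and −0.261 in AF32, against −0.012 in 5ar1 and −0.042 in AFX6. With Cdh2, Zeb2 had a rho of 0.215 in 5ar1 and 0.202 in 5ar2, and near 0 in both EpiSC lines. Snai1 had a rho with Cdh1 of −0.036, −0.145, 0.011 and 0.104, in the order 5ar1, 5ar2, AFX6, AF32. The highest value among the factors was that of Snai2 with Zeb1 in AFX6, 0.453, which rested on 8 cells with any count of Snai2. Over all 45 pairs of members the median rho was −0.026 in 5ar1 and −0.024 in 5ar2 for FS cells, and −0.0013 in AFX6 and −0.024 for AF32.

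**Figure D4:**
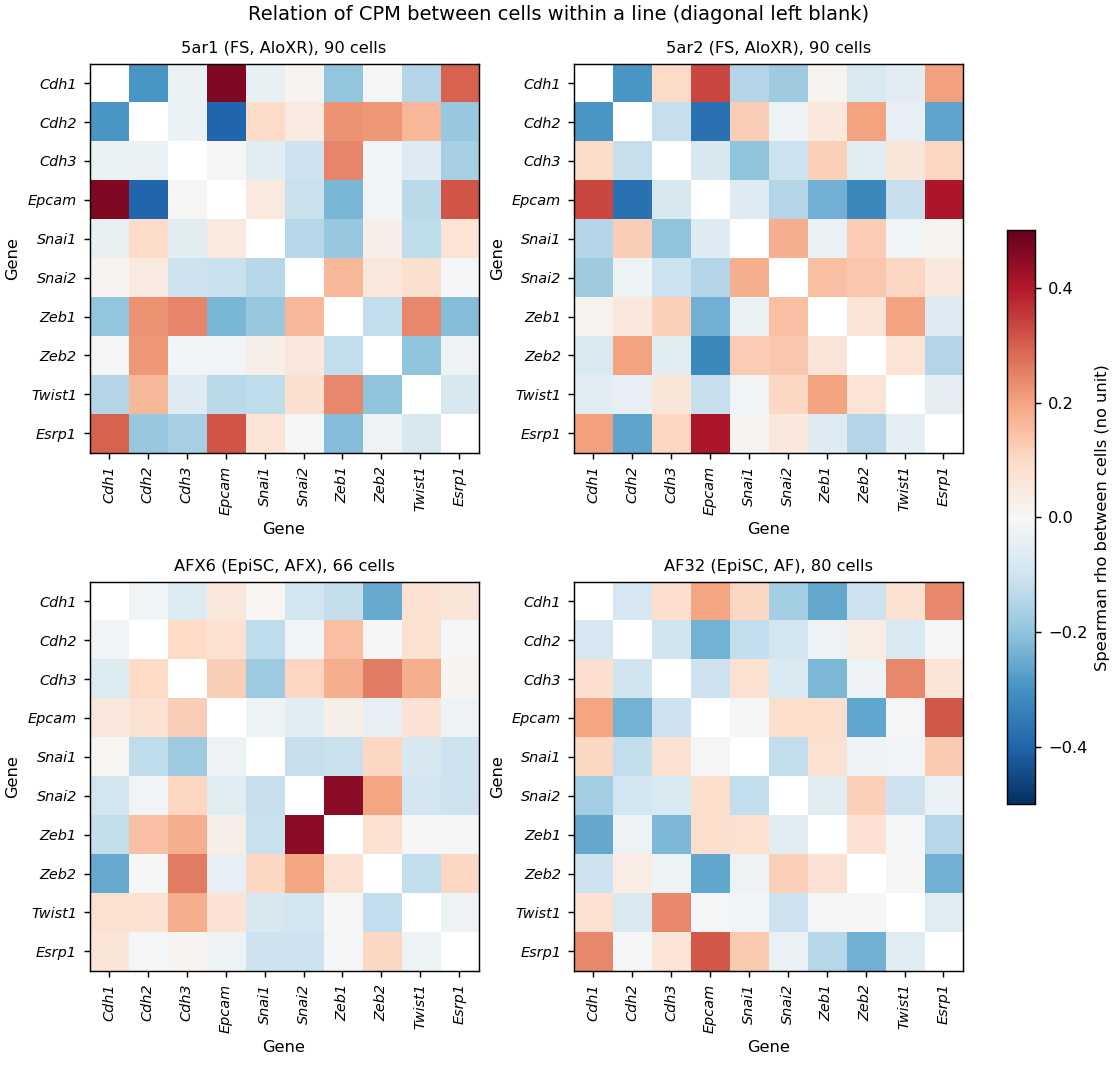
Spearman's rho of CPM between the kept cells of a line for each pair of the 10 members, 1 panel per line, with red for positive and blue for negative values and the diagonal left blank. In 5ar1 and 5ar2 Cdh1, Epcam and Esrp1 are red with each other and blue with Cdh2, from −0.396 to 0.461, a block that is pale in AFX6.

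Genes most like Cdh1 and Cdh2 were sought among the same 7038 genes by the mean of the 4 within-line rho values. The 5 highest for Cdh1 were the tight junction gene Cldn6 (0.386), the protease inhibitor Spint2 (0.324), the polarity gene Crb3 (0.285), the de novo DNA methyltransferase Dnmt3b (0.281) and the keratin Krt18 (0.280). All 5 were positive in each of the 4 lines, which the choice by the mean of those values favours. Epcam ranked 7th (mean rho 0.263) and Esrp1 41st (0.200), while Cdh2 ranked 24th from the lowest end (−0.170). The lowest for Cdh1 were Psme2 (−0.281), Ccnd3 (−0.252) and Ckb (−0.241). The 5 highest for Cdh2 were the intermediate filament Vim (0.313), Ppp1r1a (0.294), the integrin Itgb1 (0.276), the tubulin Tuba1a (0.275) and the matrix gene Sparc (0.275). These too were positive in all 4 lines, as the same choice favours. The lowest were Car14 (−0.281), Gm9625 (−0.275) and Gm6278 (−0.267), and Epcam ranked 13th from the lowest end (−0.232). Gm9625 and Gm6278 are predicted genes that may share reads with a parent gene. All 7038 genes had a median mean rho of 0.024 with Cdh1 and 0.0031 with Cdh2, with 5th to 95th percentiles of −0.094 to 0.131 and −0.120 to 0.121.

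Lists of related genes were read beside the members. Of the other classical and type II cadherins, 15 had a row and 11 were tested between FS and EpiSC lines, and 0 were called by edgeR. At an unadjusted p under 0.05, 2 passed, Cdh4 and Cdh22, both higher in FS cells, beside 16.1% of all genes. Cdh4 (R-cadherin) had 24.9 and 11.8 CPM in 5ar1 and 5ar2 against 2.336 and 3.89 in AFX6 and AF32 (log2 fold change 2.554, SE 0.561, adjusted p = 0.190 by edgeR). Cdh22 had 25.9 and 14.3 against 5.77 and 6.605 CPM (1.692, SE 0.413, adjusted p = 0.192 by edgeR). The third of the most abundant ones, Cdh10, had 20.8, 14.8, 4.53 and 18.1 CPM in 5ar1, 5ar2, AFX6 and AF32 (0.66, SE 0.721, adjusted p = 0.766 by edgeR). The median log2 fold change of the 11 cadherins was 1.197, against −0.011 over all genes tested. Both FS cell lines were above both EpiSC lines for 6 of the 11, 0 were higher in both EpiSC lines, and 5 overlapped, beside 26.8% and 21.5% of all genes. Without its highest cell AFX6 had 0.993 CPM of Cdh4 and 3.80 of Cdh22. Cdh20 was among the 6, at 0.258 and 0.253 CPM in 5ar1 and 5ar2 against 0.225 in AF32. Without the highest cell of each FS cell line it had 0.117 CPM in 5ar1 and 0.0512 in 5ar2. Cdh19 and Cdh26 were not analysed here.

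Of 12 catenins and cadherin partners, 0 were called by edgeR, and 2 had an unadjusted p under 0.05, Ctnna2 and Nectin1, both higher in FS cells, where the share over all genes was 16.1%. Both EpiSC lines were above both FS cell lines for 5 of the 12, both FS cell lines above both EpiSC lines for 2, and 5 overlapped, beside 21.5% and 26.8% of all genes. Some of the 5 passed narrowly. Plekha7 had 22.8 CPM in AF32 against 21.9 in 5ar1, and 21.3 in AF32 without its highest cell. Afdn had 43.15 CPM in AF32 against 41.7 in 5ar2. Ctnnb1 (beta-catenin) had 367, 312, 325 and 419 CPM in 5ar1, 5ar2, AFX6 and AF32, and Ctnna1 (alpha-catenin) 217, 209, 288 and 226. Nectin2 had 119, 149, 428 and 126 CPM, with AFX6 again the highest. Jup (plakoglobin) was 3.05-fold higher in AFX6 than in AF32 (3.01–3.09), whereas Ctnna1 was 1.275-fold higher in AFX6 and Ctnnb1 lower there. The median log2 fold change of the list was −0.30. Between cells, the 7 list genes compared had a median mean rho of 0.124 with Cdh1, against 0.024 over the 7038 genes compared.

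The epithelial regulators and desmosome genes differed between the EpiSC lines. Of 17 with at least 1 CPM in AFX6 or AF32, all 17 were at least 2-fold higher in AFX6 and 0 in AF32. Over all genes these shares were 12.6% and 17.2%. All 17 reached 1 CPM in AFX6, but only 12 did in AF32. Esrp2, Ovol1, Ovol2, Pkp3 and Ppl passed that limit through AFX6 alone, so they could only lie higher there. The median log2 fold of AF32 over AFX6 was −2.11, against 0.088 over the 14789 genes above 0 in both. Spint2 had 449.8 CPM in AFX6 and 132.5 in AF32, Spint1 194 and 66.2, and Pkp2, a plakophilin of desmosomes, 122 and 49.0. Their levels in the FS cell lines were 142 and 163 CPM for Spint2, 82.4 and 66.2 for Spint1, and 83.4 and 107 for Pkp2 in 5ar1 and 5ar2, closer to AF32 than to AFX6 for the first 2 genes. Ovol1, Ovol2 and Pkp3 had 3 counts each over all AF32 cells, against 2.174, 8.52 and 7.72 CPM in AFX6, where Ovol1 had 1.169 CPM without its highest cell. Ovol1 and Ovol2, repressors of the Zeb genes, were below 5 CPM in every AF32 cell. They were low in FS cells too, as was Pkp3. In 5ar1 and 5ar2 Ovol1 had 0.00232 and 0.320 CPM, Ovol2 1.04 and 0.798, and Pkp3 0.00696 and 0. Ovol2 was found in 6 cells of 5ar1 and 4 of 5ar2, and 1 cell held 99.3% of the Ovol1 counts in 5ar2. Their part in the levels of the Zeb genes was not tested. Between FS and EpiSC lines 0 of 17 tested genes of this list were called by edgeR, with a median log2 fold change of −0.95. With Cdh1, the 5 list genes that reached 20 CPM had a median mean rho of 0.218, against 0.024 over the 7038 genes compared.

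**Figure D5:**
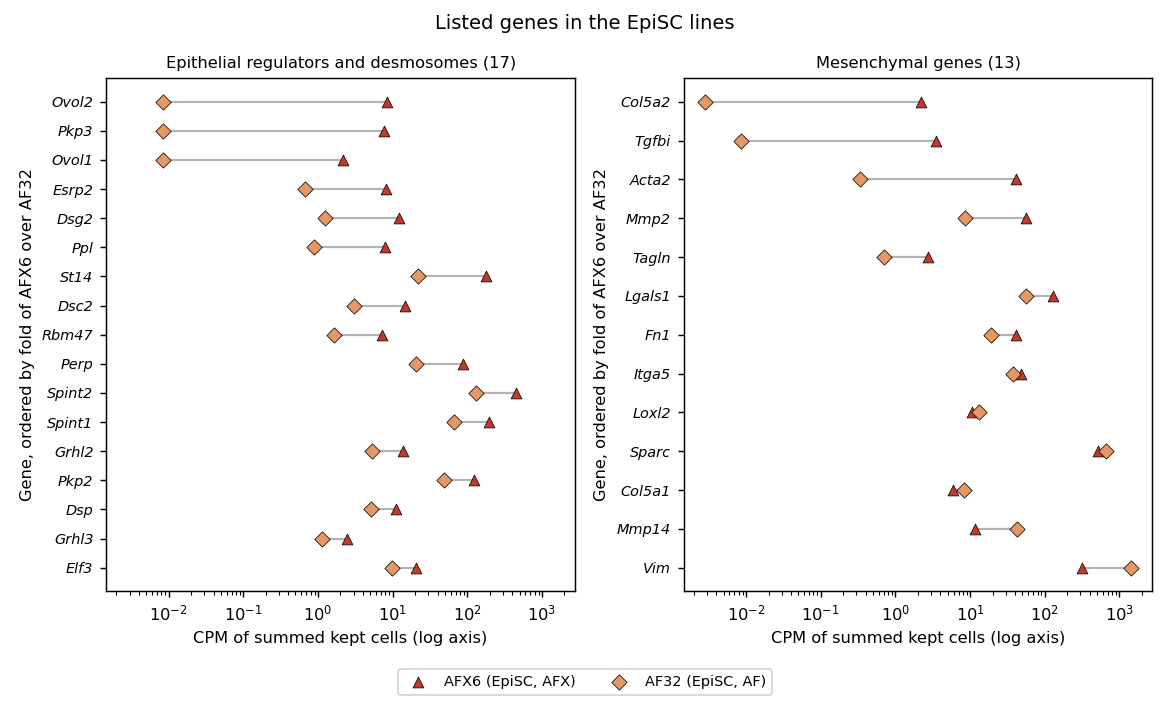
CPM of the summed kept cells (log axis) of AFX6 (triangles) and AF32 (diamonds) for 17 epithelial regulator and desmosome genes (left) and 13 mesenchymal genes (right) with at least 1 CPM in either line, ordered by fold. All 17 epithelial genes lie higher in AFX6, and 12 of them reach 1 CPM in AF32. Of the 13 mesenchymal genes, 7 are at least 2-fold higher in AFX6 and 2 in AF32, and 9 of the 13 reach 1 CPM in AF32.

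Mesenchymal genes went both ways. Of 13 compared, 2 were at least 2-fold higher in AF32, Vim and Mmp14, and 7 at least 2-fold higher in AFX6. Over all genes the 2 shares were 17.2% and 12.6%. All 13 reached 1 CPM in AFX6, but only 9 did in AF32. Acta2, Tagln, Tgfbi and Col5a2 passed that limit through AFX6 alone, so they could only lie higher there. Of the Col5a2 counts in AFX6, 1 cell held 97.2%. Vim had 1435 CPM in AF32 against 317 in AFX6, 465.5 in 5ar1 and 600 in 5ar2. Sparc had 666, 510.2, 408 and 612 CPM in the same order. Acta2, a smooth muscle actin, had 535.5 CPM in 5ar2 against 11.6 in 5ar1, 41.15 in AFX6 and 0.340 in AF32, but 1 cell held 82.5% of its counts in 5ar2, and without that cell the level was 95.2 CPM. Likewise AFX6 had 19.6 CPM of it without its highest cell. The median log2 fold of AF32 over AFX6 for this list was −1.09, against 0.088 over the 14789 genes above 0 in both. That median includes the genes that passed the limit through AFX6 alone. Between FS and EpiSC lines 0 of 13 tested were called by edgeR, and the median log2 fold change was −0.023. With Cdh1, the 8 list genes that reached 20 CPM had a median mean rho of −0.021. Among other EMT transcription factors 0 of 10 tested were called by edgeR, with a median log2 fold change of −0.16. The 3 factors that reached 20 CPM had a median mean rho of 0.102 with Cdh1. Tcf3, which encodes E proteins that bind E-boxes, had 227, 190, 160 and 207 CPM in 5ar1, 5ar2, AFX6 and AF32. Sox9 had 8.74, 17.2, 4.44 and 104.9 CPM, and Tcf4 28.0, 23.6, 19.6 and 39.2. Of the 7 factors compared between the EpiSC lines, 4 were at least 2-fold higher in AF32 and 1, Snai3, in AFX6. The 4 were Sox9, Tcf4, Klf8 and Gsc, with Tcf4 only just past 2-fold. Klf8 and Gsc reached 1 CPM in AF32 alone, so they could only lie higher there. Without its highest cell AF32 had 0.920 CPM of Gsc. Over all genes the shares at least 2-fold higher in AF32 and in AFX6 were 17.2% and 12.6%. Snai3 had 17.3 CPM in AFX6 against 1.9 in AF32 (1.259 without the highest AF32 cell). Prrx1 was not analysed here.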

How the data were processed

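Per the labels and the study's methods, the authors aligned Smart-seq2 reads to GRCm38.p6 with STAR 2.7.3a and counted uniquely mapped reads on Ensembl release 98 genes with featureCounts 2.0.0. The deposited raw table holds read counts of 31617 genes in 384 cells. A second deposited table holds the authors' sctransform values, whole numbers treated as a score and used in an alternative correlation. Cells with fewer than 3000000 counts were left out here (58 cells). With 1 sorted cell per well, no doublet caller was run. Symbols, coordinates and exon lengths came from GENCODE M21, in which 52 genes had no record.

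Counts of the kept cells were summed per line, and 2 FS lines were compared with 2 EpiSC lines with edgeR 4.0.16 (quasi-likelihood test, TMM, filterByExpr) in R 4.3.3, with DESeq2 1.42.0 and limma 3.58.1 on mean log2(CPM + 1) as alternatives. The fit was tested on simulated data. Correlations and exact intervals were computed in Python 3.11.15 with scipy 1.17.1. Folds between single lines were compared for genes reaching 1 CPM in 1 of the lines or both. Named genes were the 10 members, the 3 most abundant genes of each list and any called by edgeR, and the 5 most and 3 least like Cdh1 or Cdh2. Jup, Ctnna2, Nectin1, Esrp2, Ovol1, Ovol2, Pkp3, Ppl, Mmp14, Fn1 and Col5a2 fell outside that rule. So did Snai3, Tubb3, Eomes, T, Mixl1, Sox17, Foxa2, Tagln, Tgfbi, Klf8, Gsc, Cdh20, Plekha7 and Afdn. All of these were picked with their values in view. The members and lists were chosen with earlier results of these data known. Cells are not replicates, the lines are, and intervals cover counting error only.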

Additional observations from a re-analysis of the deposited data

How the results depend on the processing

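The count of genes called between FS and EpiSC lines was 0 under 11 alternatives and 1806 with DESeq2, which also called Cdh3 (log2 fold change −2.08) and Snai1 (2.216). Leaving out each line in turn gave 0 calls, with the lone line of a group assumed to vary like those of the other group. The log2 fold change of FS over EpiSC lines changed sign with limma for Cdh1 (0.62, adjusted p = 0.87), Zeb1 (0.10, adjusted p = 0.961) and Zeb2 (0.70, adjusted p = 0.478). It also did so for Cdh1 without AFX6, and for Zeb1 and Zeb2 without AF32, where fewer lines entered the fit. Over the lines left out, the range was −1.28 to 1.7 for Cdh1, −1.08 to 0.39 for Zeb1 and −0.92 to 1.534 for Zeb2. The cause of the sign changes with limma was not tested. The other 112 values of members kept their direction and side of the threshold. The rho of Cdh1 with Cdh2 in AFX6 was 0.221 over the 34 cells with a count of both genes, an alternative chosen after seeing the data, and its Pearson r was 0.1115. In AF32 rho was 0.0087 with a minimum of 4000000 counts. In 5ar1 and 5ar2 it stayed below 0 under every alternative run, from −0.317 to −0.189. With the median of the cells' CPM in place of the summed counts, the log2 fold of Zeb1 in 5ar1 over 5ar2 was −2.62, and 5 other folds between lines moved. Shares of cells moved by more than their interval in 52 values and stayed within it in 188. No paired analysis was possible because cell numbers pair no cells between lines and the line sums carry no number. Snai2 and Twist1 were found in at most 12.5% of the cells of a line, and thinning to 1000000 counts left their shares within their intervals. Levels without the cell with the most counts of a gene, chosen after seeing the data, stand beside the members and most other named genes whose level they moved by over 1.5 times.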
